A study of Mus musculus with 9 samples.

Results

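The 10 genes described here make up the core of the p53 and Rb pathways and their inhibitors of cyclin-dependent kinases (CDKs): Trp53, Mdm2, Cdkn1a, Ccng1, Perp, Cdkn1b, Cdkn2a, Cdkn2b, Cdkn2c and Rb1. They were chosen by symbol from the 36410 genes in the table of mRNA counts, and all 10 were among the 13508 genes that passed the filter on low counts. The mRNA came from 3 immortalized striatal cell lines derived from wild-type and knock-in mouse embryos of the C57/BL6 strain. Control cells (STHdh Q7/Q7) carry normal-length CAG repeats on both alleles of the huntingtin gene, HD-het cells (STHdh Q7/Q111) carry an expanded repeat on 1 allele, and HD-homo cells (STHdh Q111/Q111) on both. No treatment or time point separates the groups. There were 3 libraries per line, and since each genotype is represented by a single line, genotype and line cannot be told apart. Nothing in the sources used here says that the 3 libraries of a line came from separate cultures, so p-values measure the spread between these libraries, which may be technical.

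The p53 protein (Trp53) is a transcription factor that is held low by the ubiquitin ligase Mdm2, itself a p53 target gene, and that switches on genes of cell cycle arrest, DNA repair and cell death. The retinoblastoma protein (Rb1) binds E2F transcription factors and keeps the genes of DNA replication silent until cyclin-CDK complexes phosphorylate it, a step that the CDK inhibitors restrain. These striatal lines were made with a temperature-sensitive viral large T antigen, a protein that binds both p53 and Rb family proteins, so mRNA levels of this pathway are not a measure of its activity.

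Between 29507665 and 41197931 reads were counted on genes per library, and each of the 10 genes had between 448 and 7797 counts in every library, far above the 3 counts taken as the floor. Of 10 markers of striatal projection neurons only 4 passed the filter, and 1 of the 10, the dopamine receptor gene Drd1, was at 0 in every library. Levels are given as counts per megaread after normalization (CPM). Summed over these 10 markers, the level lay between 89.9 and 99.9 CPM in control, 115 and 118 in HD-het and 161 and 183 in HD-homo cells. The summed level of 4 neural progenitor markers lay between 660 and 702 CPM in control, 949 and 989 in HD-het and 27.2 and 40.2 in HD-homo cells. That of 6 mesenchymal markers lay between 4844 and 6140, 14668 and 16547, and 6234 and 6817 CPM. The lines thus differed widely beyond the pathway, and the part of these marker differences in the results below was not tested. Replicate libraries differed from each other by more than counting noise in every pair.

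Most of the 10 genes differed between the lines, as did most genes in these cells. In HD-het against control cells, 7 of the 10 passed the test (adjusted p under 0.05), 4 of them higher and 3 lower, beside 65.1% of all tested genes, 33.8% higher and 31.4% lower. The libraries of HD-het and control cells did not overlap for 9 of the 10 genes, beside 74% of all tested genes. In HD-homo against control cells, 6 passed, 1 higher and 5 lower, beside 58.6% of all tested genes, 29.6% higher and 28.9% lower, and 6 did not overlap, beside 65.3%. Between HD-homo and HD-het cells, 8 passed, 2 higher and 6 lower in HD-homo, beside 71.6% of all tested genes, 36% higher and 35.6% lower, and 6 did not overlap, beside 72.8%. These shares were near the background, so the description below rests on the individual genes. The comparisons share their samples and are not independent of each other.

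**Figure D1:**
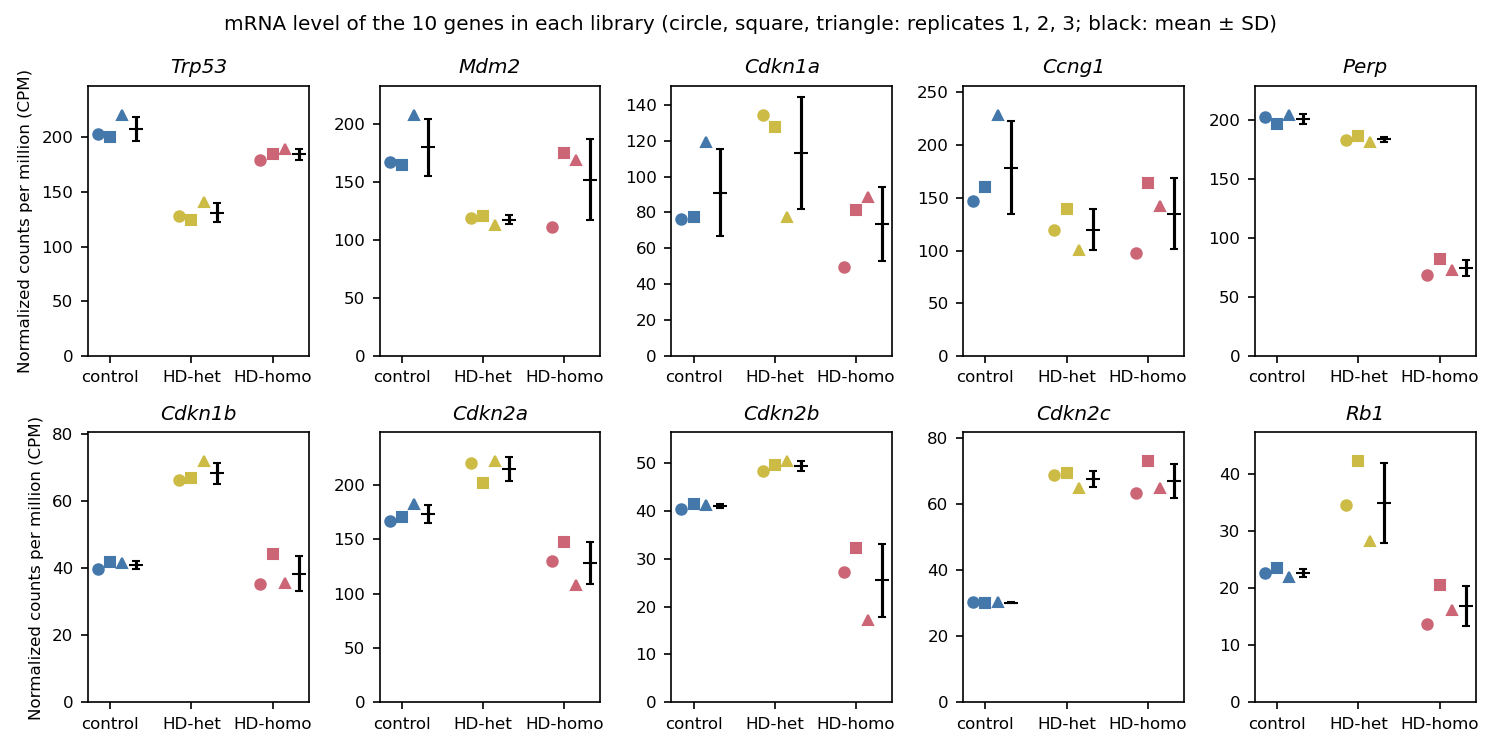
Normalized CPM (vertical axis, linear from 0) of each of the 10 genes in the 9 libraries, with 1 panel per gene, symbols for the replicates of control, HD-het and HD-homo cells and a black bar for the mean ± SD of 3 libraries. Perp is low in the 3 HD-homo libraries (68.6 to 81.9 CPM), Cdkn2c is low in the 3 control libraries (30.1 to 30.5 CPM), and the libraries of a line are widely spread for Cdkn1a and Ccng1.

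Compared per kilobase of annotated exons, which allows levels to be set side by side between genes, Cdkn2a was the most abundant of the 10 in every line, with a mean of 148 CPM per kb in control, 183 in HD-het and 109 in HD-homo cells. Rb1 was the least abundant in every line, at 3.77, 5.81 and 2.80 CPM per kb. Perp held the second place in control and HD-het cells, at 103 and 94.0 CPM per kb, but ranked below Trp53 and Ccng1 in HD-homo cells at 38.2. Trp53 itself was at 51.3 CPM per kb in control, 32.3 in HD-het and 45.5 in HD-homo cells.

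Trp53 mRNA was highest in control cells, lowest in HD-het cells and intermediate in HD-homo cells. It was at 202.8, 200.03 and 220.3 CPM in the control libraries, at 127.7, 124.0 and 140.5 in HD-het and at 179.1, 184.6 and 188.9 in HD-homo, so that no 2 lines overlapped. The fall in HD-het cells had a log2 fold change of -0.67 (SE 0.0633, adjusted p = 4.1e-06). The fall in HD-homo cells was smaller, at -0.17 (SE 0.0629, adjusted p = 0.0342), and HD-homo exceeded HD-het cells by 0.49 (SE 0.0632, adjusted p = 2.87e-05). The call in HD-homo against control cells was lost without control replicate 1 (-0.19, adjusted p = 0.0583), control replicate 3 (-0.13, adjusted p = 0.130), HD-homo replicate 1 (-0.15, adjusted p = 0.0974) or HD-homo replicate 2 (-0.17, adjusted p = 0.0567). Trp53 is a gene of chromosome 11 (GRCm38, 69580359 to 69591873, plus strand), and 3.88% of the 50-base words of its transcripts occur in other genes, beside 2.14% for Cdkn1a, 1.21% for Mdm2 and 0 for the other 7 genes.

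Mdm2, whose product marks p53 for degradation, was also lowest in HD-het cells. The control libraries were at 167.2, 164.7 and 208.0 CPM, the HD-het libraries at 119.2, 120.5 and 113.0 and the HD-homo libraries at 111.7, 175.6 and 168.8. HD-het cells lay below both other lines in all but 1 library, HD-homo replicate 1, which was lower than every HD-het library. The log2 fold change was -0.61 in HD-het against control cells (SE 0.148, adjusted p = 0.00352) and did not pass the test in HD-homo cells, at -0.24 (95% confidence interval -0.57 to 0.08, adjusted p = 0.179). HD-homo exceeded HD-het cells by 0.37 (SE 0.148, adjusted p = 0.0412). That last call depended on single libraries and was lost without control replicate 1 (0.37, adjusted p = 0.0502), HD-het replicate 1 (0.38, 0.0818), 2 (0.39, 0.0763) or 3 (0.34, 0.101), or HD-homo replicate 2 (0.26, 0.146) or 3 (0.29, 0.128).

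**Figure D2:**
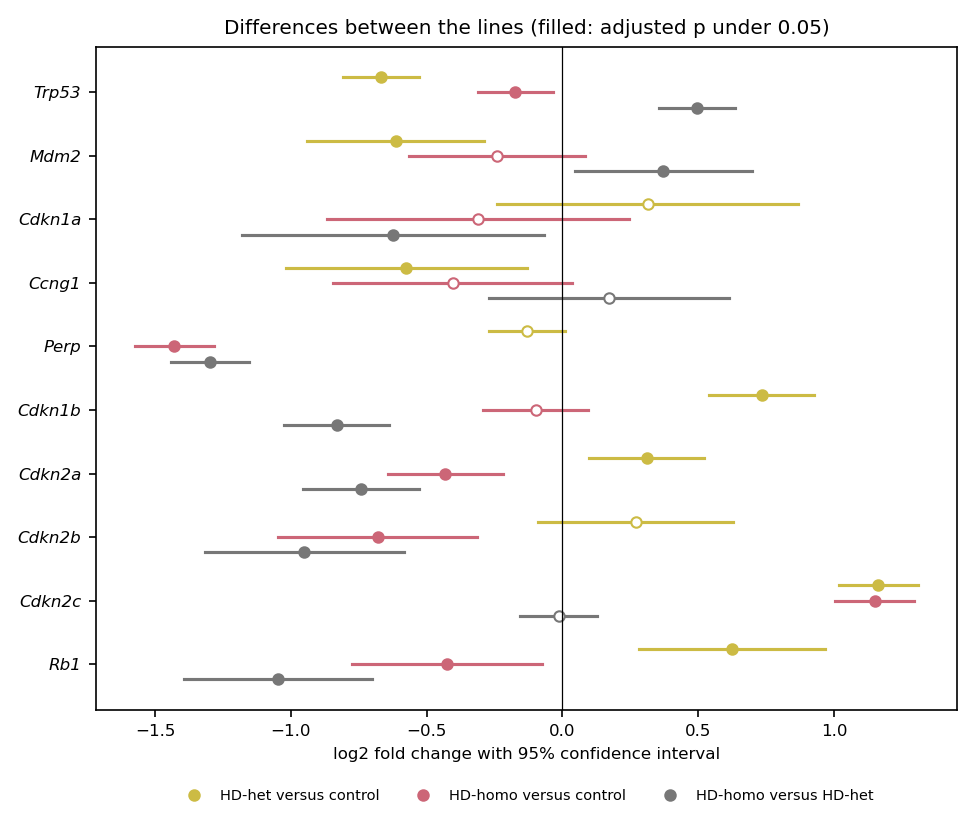
Log2 fold changes (horizontal axis) of the 10 genes with their 95% confidence intervals in the 3 comparisons between lines, filled where the adjusted p was under 0.05. Perp in HD-homo cells (-1.43 against control) and Cdkn2c in both HD lines (1.15 and 1.16) lie farthest from 0, and the intervals are widest for Cdkn1a and Ccng1.

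The p53 targets among the 10 genes, Mdm2 included, did not move alike. Cdkn1a, which encodes the CDK inhibitor p21 and is the best known p53 target of cell cycle arrest, was at 76.6, 77.3 and 119.2 CPM in the control libraries, 134.3, 127.4 and 77.5 in HD-het and 49.8, 81.5 and 88.7 in HD-homo. All 3 lines overlapped. Neither HD line passed the test against control cells, with log2 fold changes of 0.31 in HD-het (95% confidence interval -0.24 to 0.87, adjusted p = 0.292) and -0.31 in HD-homo (-0.87 to 0.25, adjusted p = 0.315). HD-homo was lower than HD-het cells by a log2 fold change of -0.62 (SE 0.252, adjusted p = 0.0440), although the libraries overlapped. This call was lost without control replicate 2 (-0.62, adjusted p = 0.0503), HD-het replicate 1 (-0.48, adjusted p = 0.155), HD-het replicate 2 (-0.53, adjusted p = 0.128) or HD-homo replicate 1 (-0.41, adjusted p = 0.154), and it was not made by DESeq2's Wald test (adjusted p = 0.0762) or with library totals only (-0.60, adjusted p = 0.0561).

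Ccng1 encodes cyclin G1, a p53 target that takes part in the control of Mdm2. It was at 147.1, 160.0 and 228.6 CPM in control, 119.5, 139.6 and 100.5 in HD-het and 98.0, 164.3 and 142.0 in HD-homo libraries. The HD-het libraries lay below the control libraries, and the HD-homo libraries overlapped both. The log2 fold change was -0.57 in HD-het (SE 0.201, adjusted p = 0.0261) and -0.40 in HD-homo cells against control (95% confidence interval -0.85 to 0.04, adjusted p = 0.105), and HD-homo and HD-het cells did not pass the test against each other (0.17, interval -0.27 to 0.61, adjusted p = 0.464). The call in HD-het cells was lost without control replicate 3 (-0.36, adjusted p = 0.132), HD-het replicate 1 (-0.57, adjusted p = 0.0656) or HD-het replicate 3 (-0.46, adjusted p = 0.0924), while HD-homo cells passed against control without HD-homo replicate 2 (-0.57, adjusted p = 0.0346).

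Perp, which encodes a membrane protein of desmosomes and a p53 effector of cell death, gave the largest difference of the 10 genes. Control libraries held 202.2, 196.3 and 204.3 CPM, HD-het libraries 182.7, 186.2 and 181.7, and HD-homo libraries 68.6, 81.9 and 73.2. The 3 HD-homo libraries stood far below those of the other lines. Perp fell in HD-homo cells by a log2 fold change of -1.43 against control (SE 0.0659, adjusted p = 1.01e-08) and of -1.30 against HD-het cells (SE 0.0657, adjusted p = 1.63e-08), which leaves 0.371 and 0.407 of the level. HD-het libraries lay slightly below control libraries without passing the test (-0.13, 95% confidence interval -0.27 to 0.01, adjusted p = 0.0946), although they passed it without HD-homo replicate 2 (-0.13, adjusted p = 0.0321), a library of neither line that enters through the shared spread. No other gene overlaps Perp in the annotation (chromosome 10, 18845020 to 18857073, plus strand).

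Promoter windows of RefSeq (GRCm38.p6, 250 bases before to 50 after a start site) were at hand for 8 of the 10 genes, not for Rb1 and Perp, and were searched on both strands for the p53 half-site and for the full p53 element, which is a pair of half-sites joined directly or by a short spacer and so contains the half-site. A full element occurred in 24 of 32851 windows (0.0731%) and a half-site in 8.36%. Cdkn1a was the only one of the 8 genes with a full element inside such a window. Sequence outside the windows was not searched, so a full element elsewhere in the other genes would be missed. The matches of Cdkn1a, Mdm2 and Ccng1 are printed because the levels of these targets are set side by side by library next, and that of Trp53 for comparison, with the half-site in capitals and each sequence 5′ to 3′ on the gene's strand.

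Cdkn1a, chr17:29090918-29090947, plus strand: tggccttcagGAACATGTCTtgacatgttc
Cdkn1a, chr17:29090896-29090925, plus strand: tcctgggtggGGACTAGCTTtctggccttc
Mdm2, chr10:117710925-117710954, minus strand: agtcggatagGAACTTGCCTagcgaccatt
Ccng1, chr11:40755452-40755481, minus strand: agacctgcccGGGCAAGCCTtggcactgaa
Trp53, chr11:69580274-69580303, plus strand: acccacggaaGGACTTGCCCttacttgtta

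Cdkn1a had 2 promoter windows. The first Cdkn1a half-site begins at position -51 and the second at position -73 from the start site of 1 window, and the other window held no p53 half-site. The full element counted above is the 32-base stretch that begins at position -73 and holds both half-sites with a spacer between them. The 10 bases that follow the first half-site match the half-site pattern at 9 of 10 positions and are not part of that element. Those after the half-sites of Mdm2, Ccng1 and Trp53 match at 5, 4 and 7. A match describes these letters and does not show that p53 binds there.

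The spread of Cdkn1a within a line was large, and Ccng1 deviated in the same libraries, as did Mdm2 in control and HD-homo cells. On the log2 scale, control replicate 3 lay above the mean of the other control libraries by 0.63 for Cdkn1a, 0.57 for Ccng1 and 0.33 for Mdm2. HD-homo replicate 1 differed from the others of its line by -0.77, -0.64 and -0.62, and HD-het replicate 3 by -0.76, -0.36 and -0.09. In these libraries Trp53 mRNA differed by only 0.13, -0.06 and 0.16, so that its own level did not follow the targets in sign in HD-het replicate 3. Rb1, which is not among these targets, differed by -0.07, -0.41 and -0.44 in the same libraries. In HD-homo replicate 2 all 10 genes lay above the mean of the other HD-homo libraries, from 0.005 for Trp53 to 0.57 for Cdkn2b. Deviations of single libraries were therefore not confined to Cdkn1a, Ccng1 and Mdm2. The median of 35 other p53 target genes differed by 0.14 in control replicate 3 (26 of 35 genes above 0), by -0.12 in HD-het replicate 3 (8 of 35) and by -0.26 in HD-homo replicate 1 (6 of 35). The median of all tested genes lay between -0.01 and 0.01 in every library. These deviations are described over 9 libraries without a test. The median of 22 E2F target genes differed by 0.07 in control replicate 3 (13 of 22 above 0), 0.17 in HD-het replicate 3 (19 of 22) and -0.08 in HD-homo replicate 1 (6 of 22), which is the sign of the p53 targets in the first and last of these libraries and the opposite sign in HD-het replicate 3.

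**Figure D3:**
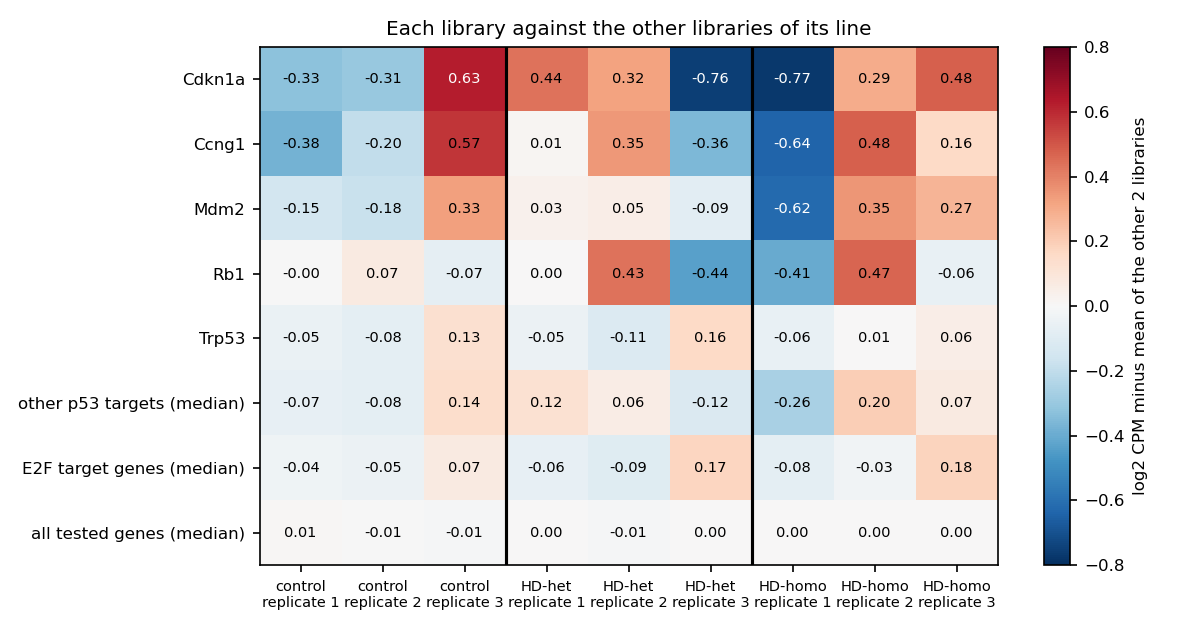
Difference in log2 CPM of each library (columns) from the mean of the other 2 libraries of its line, for 5 of the 10 genes and for the medians of 35 other p53 targets, 22 E2F target genes and all tested genes (rows), with the value printed in each cell. Cdkn1a, Ccng1 and Mdm2 are high together in control replicate 3 (0.63, 0.57 and 0.33) and low together in HD-homo replicate 1 (-0.77, -0.64 and -0.62), while Trp53 stays within 0.16. Rb1 is also low in HD-homo replicate 1 (-0.41) and in HD-het replicate 3 (-0.44).

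Over all 9 libraries, the genes whose log2 CPM was most like that of Cdkn1a were Mcee (Pearson r = 0.905), Dglucy (0.885), a gene on the list of other p53 targets, and Rara (0.879). For Trp53 they were Gm4925 (0.994), Ccdc134 (0.994) and Ubap2l (0.993). These 9 points share 3 lines, and the values are given as a description.

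Of the 35 other p53 targets, 12 rose and 11 fell in HD-het cells against control, beside 33.8% and 31.4% of all tested genes. In HD-homo cells 13 rose and 9 fell, beside 29.6% and 28.9%. Their median log2 fold changes were -0.14 and -0.01. The medians over all tested genes were 0.03 and 0.01. Thus p53 targets were called in both directions in each HD line, as were the tested genes at large. In HD-het cells the largest rises were of Gadd45a, a growth arrest gene induced by DNA damage, from 14.0 ± 0.501 to 55.6 ± 9.27 CPM (SD, n = 3; log2 fold change 1.99, adjusted p = 1.6e-05), and of the cell death gene Pmaip1 (Noxa), from 28.5 ± 2.63 to 95.04 ± 5.39 CPM (1.73, adjusted p = 1.4e-06). The stress-response gene Sesn1 (-0.999, adjusted p = 1.9e-06) and the kinase gene Plk2 (-0.94, adjusted p = 0.00013) fell most. In HD-homo cells the autophagy regulator Dram1 rose from 2.48 ± 0.497 to 12.7 ± 0.426 CPM (2.35, adjusted p = 7.1e-08) and Sesn3 from 8.65 ± 0.351 to 19.3 ± 2.32 CPM (1.16, adjusted p = 3.5e-05), while Zfp365 (-0.88, adjusted p = 3.4e-06) and Zmat3 (-0.87, adjusted p = 5.9e-05) fell.

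Among 19 regulators and relatives of p53, 18 were tested. In HD-het cells 4 rose and 9 fell, beside 33.8% and 31.4% of all tested genes. In HD-homo cells 7 rose and 5 fell, beside 29.6% and 28.9%. The medians were -0.20 and 0.03. Mdm4, the partner of Mdm2 in holding p53 back, fell in HD-homo cells (-0.41, adjusted p = 0.0021) and differed by -0.05 in HD-het cells (adjusted p = 0.66). Cop1, another ubiquitin ligase of p53, rose in HD-het (0.61, adjusted p = 8.3e-06) and fell in HD-homo cells (-0.26, adjusted p = 0.0052). The kinase gene Hipk2 fell in both, by a log2 fold change of -0.44 (adjusted p = 0.00035) and -1.24 (adjusted p = 1.2e-07). Npm1, the abundant nucleolar partner of the Arf protein, went from 1203 ± 44.0 CPM in control to 617 ± 89.9 in HD-het cells (-0.96, adjusted p = 5.5e-06). The family member Trp63 was near the floor, with counts of 0, 2 and 3 in control, 15, 18 and 27 in HD-het and 29, 29 and 31 in HD-homo libraries, and Trp73, with at most 2 counts, was the gene not tested.

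By mean level, Cdkn1a, Cdkn1b, Cdkn2a and Cdkn2b were all highest in HD-het and lowest in HD-homo cells, whereas Cdkn2c was lowest in control cells. Not every step of this order passed the test. Cdkn1b, which encodes p27, was at 39.6, 41.8 and 41.6 CPM in control, 66.1, 66.6 and 71.7 in HD-het and 35.1, 44.2 and 35.4 in HD-homo libraries. All HD-het libraries lay above those of the other lines, which overlapped each other. Cdkn1b rose in HD-het cells by 0.73 (SE 0.0875, adjusted p = 2.35e-05) and was lower in HD-homo cells when set against HD-het (-0.83, SE 0.0874, adjusted p = 6.01e-06). HD-homo against control cells gave -0.10 (95% confidence interval -0.29 to 0.10, adjusted p = 0.359), and passed the test only without HD-homo replicate 2 (-0.22, adjusted p = 0.0149).

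Cdkn2a carries the information for p16 (Ink4a), an inhibitor of the kinases Cdk4 and Cdk6, and for p19 (Arf), an inhibitor of Mdm2, which start from separate first exons. Counts per gene cannot tell the transcripts apart. Its libraries were at 166.6, 170.1 and 182.2 CPM in control, 219.7, 202.0 and 221.5 in HD-het and 129.7, 147.0 and 107.8 in HD-homo cells. The 3 lines did not overlap, with HD-het highest and HD-homo lowest. The log2 fold changes were 0.31 in HD-het (SE 0.0960, adjusted p = 0.0145) and -0.43 in HD-homo cells against control (SE 0.0964, adjusted p = 0.00261) and -0.74 for HD-homo against HD-het cells (SE 0.0965, adjusted p = 3.32e-05). Only the first was lost when a library was left out, which was control replicate 1 (0.28, adjusted p = 0.0547).

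An E2F site (TTTCCCGC, TTTGGCGC, TTTCGCGC or TTTGCCGC on either strand) was found in 2.26% of all RefSeq windows and, among the 8 genes with a window, only at Cdkn2a. It is printed because E2F factors lie downstream of the inhibitors, with the site in capitals, and begins at position -99 from the start site nearer the outer end of the gene.

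Cdkn2a, chr4:89294700-89294729, minus strand: ctctgggaagcTTTCCCGCgcgactgggga

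Cdkn2b, the gene of p15 (Ink4b), lies beside Cdkn2a in the mouse genome, with 31828 bases between their lowest coordinates. Cdkn2b had the same order of lines. It was at 40.4, 41.3 and 41.1 CPM in control, 48.3, 49.5 and 50.3 in HD-het and 27.1, 32.2 and 17.1 in HD-homo libraries, and the lines did not overlap. HD-homo cells had a log2 fold change of -0.68 against control (SE 0.167, adjusted p = 0.00458) and of -0.95 against HD-het cells (SE 0.166, adjusted p = 0.000327). The difference of 0.27 between HD-het and control cells did not pass the test (95% confidence interval -0.09 to 0.63, adjusted p = 0.168), in a fit that shares its spread with the scattered HD-homo libraries. It passed without HD-homo replicate 3 (0.27, adjusted p = 0.00507) and with only those 2 lines in the fit (0.27, adjusted p = 0.000940).

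Of 6 other genes around Cdkn2a on chromosome 4, all passed the test downward in HD-homo cells against control, beside 28.9% of all tested genes. In HD-het cells 4 passed downward and 1 upward, beside 31.4% and 33.8%. The 6 genes were chosen with earlier results of these data known and were not taken as every gene of an interval. These counts therefore do not describe the region as a whole. The lowest coordinates of the 6 genes lie 137349 to 1976292 bases from that of Cdkn2a. Their median log2 fold changes were -0.74 and -0.78, beside 0.01 and 0.03 over all tested genes. Mtap, the nearest of these by lowest coordinate (137349 bases), was at 256 ± 11.6 CPM in control, 149 ± 14.9 in HD-het and 221 ± 21.3 in HD-homo cells (SD, n = 3). Its log2 fold changes were -0.78 (adjusted p = 1.3e-05) and -0.22 (adjusted p = 0.049), the latter reduced to -0.14 (adjusted p = 0.167) without HD-homo replicate 3. Focad rose in HD-het cells (0.44, adjusted p = 0.00025) and fell in HD-homo cells (-0.29, adjusted p = 0.0049), as Cdkn2a did. Mllt3 fell in both (-0.78, adjusted p = 0.0027, and -1.19, adjusted p = 0.00018), and Klhl9 gave -0.05 (adjusted p = 0.60) and -0.24 (adjusted p = 0.021). The call of Klhl9 was lost without control replicate 1 (-0.23, adjusted p = 0.0676), control replicate 3 (-0.22, 0.0666) or HD-homo replicate 1 (-0.18, 0.0799). That of Mtap in HD-homo cells was also lost without control replicate 1 (-0.24, adjusted p = 0.0757), 2 (-0.23, 0.0779) or 3 (-0.18, 0.148), or HD-het replicate 1 (-0.22, 0.0551) or 2 (-0.22, 0.0547), and with upper-quartile factors (adjusted p = 0.0514), library totals only (0.0702) or no filter (0.0506). Elavl2, a gene of neuronal RNA binding, had 553 to 676 counts in control, 23 to 28 in HD-het and 0 to 5 in HD-homo libraries, and Dmrta1 had 51 to 71, 5 to 8 and 1 to 8. With at least 10 counts required in every library, these last 2 genes left the test and the call of Mtap in HD-homo cells was lost (-0.21, adjusted p = 0.0575), so that 3 neighbours were called in each HD line.

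Cdkn2c, the gene of p18 (Ink4c), was raised to the same height in both HD lines. Control libraries held 30.3, 30.1 and 30.5 CPM, HD-het libraries 68.8, 69.5 and 65.1, and HD-homo libraries 63.4, 73.0 and 64.9. Every HD library lay above every control library, and the HD lines overlapped. The log2 fold changes against control were 1.16 (SE 0.0663, adjusted p = 9.62e-08) and 1.15 (SE 0.0663, adjusted p = 6.32e-08), or 2.24-fold and 2.22-fold. HD-homo and HD-het cells differed by -0.01, with a 95% confidence interval of -0.15 to 0.13 (adjusted p = 0.860). It was the only one of the 10 genes that rose in both HD lines, and since both comparisons use the same control libraries they are not independent. Cdkn2c lies on chromosome 4 (109660876 to 109667189, minus strand), outside the cluster of Cdkn2a and Cdkn2b.

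Of the other CDK inhibitor genes, Cdkn2d had the same order of lines as Cdkn2a, and Cdkn1c had the reverse order. Cdkn2d, the remaining gene of the Ink4 family, was at 13.3 ± 0.980 CPM in control, 25.3 ± 2.08 in HD-het (0.93, adjusted p = 3.1e-05) and 10.1 ± 1.62 in HD-homo cells (-0.39, adjusted p = 0.015, and -0.33, adjusted p = 0.0591, without control replicate 3). Cdkn1c, which encodes p57, was low in all lines, at 2.19 ± 0.625, 0.866 ± 0.0554 and 3.92 ± 0.641 CPM, with log2 fold changes of -1.33 (adjusted p = 0.00043) and 0.85 (adjusted p = 0.0036). The phosphatase gene Cdkn3 rose in HD-het cells (0.86, adjusted p = 3.8e-05) and gave 0.18 in HD-homo cells (adjusted p = 0.18, and 0.30, adjusted p = 0.0181, without HD-homo replicate 3). Thus Cdkn1b, Cdkn2a, Cdkn2c, Cdkn2d and Cdkn3 passed the test upward in HD-het cells and Cdkn1c downward, while Cdkn1a and Cdkn2b did not pass. Among all tested genes, 33.8% passed upward in HD-het cells and 31.4% downward.

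Rb1 was highest in HD-het and lowest in HD-homo cells. Its libraries were at 22.6, 23.4 and 21.9 CPM in control, 34.5, 42.2 and 28.2 in HD-het and 13.7, 20.6 and 16.1 in HD-homo cells. The lines did not overlap, although the libraries within each HD line were more scattered than the control libraries. Rb1 rose in HD-het cells by 0.62 (SE 0.156, adjusted p = 0.00435) and had a log2 fold change in HD-homo cells of -0.43 against control (SE 0.159, adjusted p = 0.0384) and of -1.05 against HD-het cells (SE 0.157, adjusted p = 0.000101). The call in HD-homo against control cells was lost without control replicate 1 (-0.43, adjusted p = 0.0794), 2 (-0.40, 0.0956) or 3 (-0.45, 0.0654), HD-het replicate 1 (-0.43, 0.0532), or HD-homo replicate 1 (-0.30, 0.134) or 3 (-0.40, 0.0814). In the annotation Rb1 (chromosome 14, 73183673 to 73325822, minus strand) shares 488 exonic bases with Rcbtb2 and 408 with Lpar6, both on the opposite strand, and Cdkn1a shares 273 with an uncharacterized opposite-strand transcript. The libraries keep strand, but whether the counting used it is not given in the sources used here, so reads of the overlapping genes may not be told apart.

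The next list holds 19 genes of the Rb family, the E2F factors and the DREAM complex, which represses cell cycle genes. In HD-het cells 3 rose and 8 fell, beside 33.8% and 31.4% of all tested genes. In HD-homo cells 5 rose and 5 fell, beside 29.6% and 28.9%. The medians were -0.10 and 0.05. E2f6, a repressor that does not bind Rb, had the widest span, with 23.6 ± 0.373 CPM in control, 66.5 ± 0.608 in HD-het (1.49, adjusted p = 3.1e-08) and 14.2 ± 1.44 in HD-homo cells (-0.73, adjusted p = 9.0e-06). The activator E2f2 fell in both, from 12.1 ± 1.16 to 3.88 ± 0.561 and 5.73 ± 0.724 CPM (-1.64, adjusted p = 1.9e-06, and -1.09, adjusted p = 3.8e-05). Tfdp2, an E2F dimerization partner, rose in both (0.59, adjusted p = 0.00017, and 0.56, adjusted p = 0.00031). The repressor E2f8 fell in HD-het (-0.38, adjusted p = 0.0041) and rose in HD-homo cells (0.55, adjusted p = 0.00038), and its relative E2f7 fell in HD-het cells (-0.67, adjusted p = 5.4e-05).

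The listed E2F target genes were mostly lower in HD-het cells. Of 22 genes, 16 fell and 2 rose, beside 31.4% and 33.8% of all tested genes. The 22 genes were chosen with earlier results of these data known, so these counts describe the list and not E2F targets at large. Their median log2 fold change was -0.38, beside 0.03 over all tested genes. Cdc6, a loader of the replicative helicase, went from 62.9 ± 5.08 to 29.1 ± 5.45 CPM (-1.11, adjusted p = 1.4e-05). The genes that rose were Mki67 (0.40, adjusted p = 0.0072), whose product marks dividing cells, and Ccne1 (0.36, adjusted p = 0.0060), which encodes cyclin E1. In HD-homo cells 7 rose and 3 fell, beside 29.6% and 28.9% of all tested genes, with a median of -0.04. The 10 called genes became 6 without control replicate 3. Mki67 (0.49, adjusted p = 0.0025) and the DNA polymerase gene Pola1 (0.56, adjusted p = 9.7e-05) rose most and Cdt1 fell (-0.45, adjusted p = 0.00028). Against HD-het cells, 15 of the 22 were higher in HD-homo and 1 lower, beside 36% and 35.6% of all tested genes. The median was 0.41. No test set this list against the levels of Rb1 or of the inhibitor genes.

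**Figure D4:**
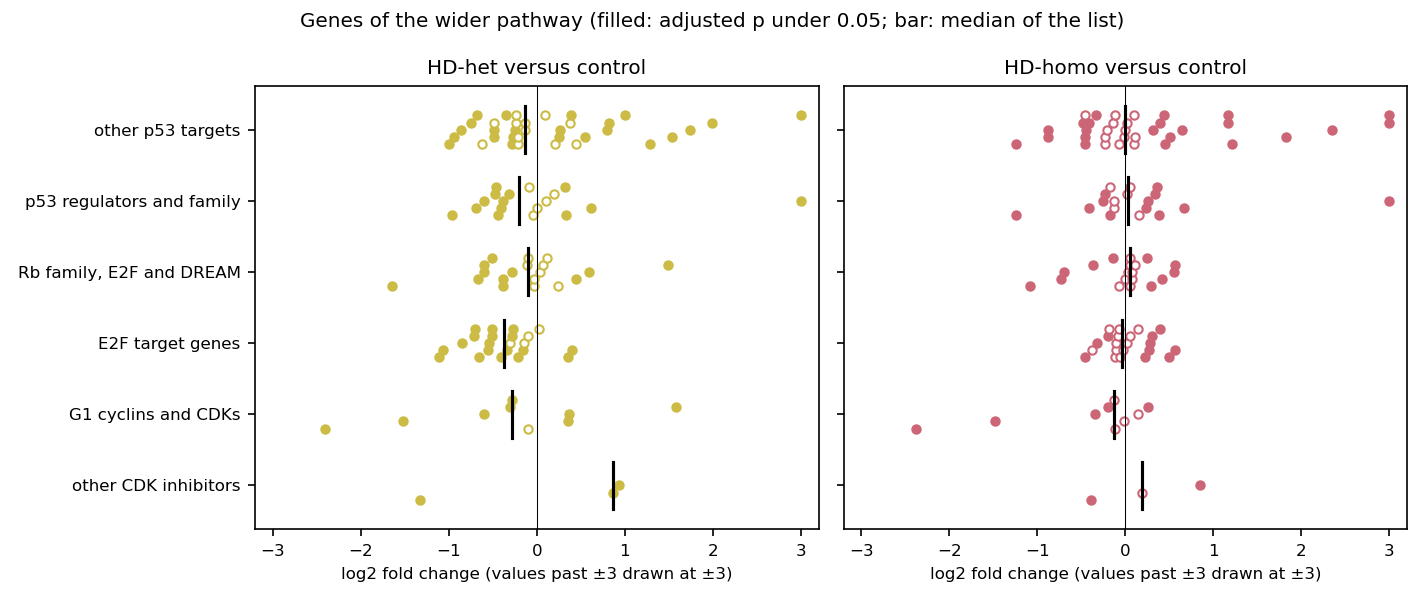
Log2 fold change (horizontal axis, limited to ±3) against control of each gene on 6 lists of the wider pathway, in HD-het cells on the left and HD-homo cells on the right, filled where the adjusted p was under 0.05, with a bar at the median of each list. E2F target genes lie mostly below 0 in HD-het cells (median -0.38) and around 0 in HD-homo cells (-0.04), and genes near the floor in control cells (Ddit4l, Trp63 and, in HD-homo, Gdf15) are drawn at the edge.

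The inhibitors act on complexes of the G1 cyclins and their kinases, and the D-type cyclin genes differed widely between the lines. Of 9 such cyclin and kinase genes, 3 rose and 5 fell in HD-het cells, beside 33.8% and 31.4% of all tested genes. In HD-homo cells 1 rose and 4 fell, beside 29.6% and 28.9%. The latter 5 became 3 without control replicate 1, control replicate 3 or HD-homo replicate 1. Ccnd1, which encodes cyclin D1, was at 739 ± 81.5 CPM in control, 139 ± 2.92 in HD-het (-2.41, adjusted p = 4.5e-08) and 264 ± 48.2 in HD-homo cells (-1.49, adjusted p = 1.2e-06). Ccnd2 was at 206 ± 3.23, 265 ± 18.2 and 39.7 ± 2.51 CPM, so that it rose in HD-het (0.36, adjusted p = 0.00047) and fell in HD-homo cells (-2.37, adjusted p = 2.8e-10). Ccnd3 fell in HD-homo cells only slightly (-0.34, adjusted p = 0.0012) and gave -0.10 in HD-het cells (adjusted p = 0.22). Among the kinases, Cdk6 fell in HD-het cells from 122 ± 6.58 to 42.5 ± 1.21 CPM (-1.52, adjusted p = 1.8e-07) and was at 121 ± 17.5 CPM in HD-homo cells, Cdk4 fell in HD-het cells by a log2 fold change of -0.60 (adjusted p = 1.4e-05), and Cdk2 by -0.31 (adjusted p = 0.0016). Ccng2, the relative of Ccng1, rose in HD-het cells from 5.96 ± 0.216 to 17.8 ± 0.814 CPM (1.58, adjusted p = 1.1e-07), whereas Ccng1 fell there.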

How the data were processed

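Total RNA of the 9 samples was poly(A)-selected and sequenced with a strand-specific kit, and the deposited values are the authors' raw counts per gene, not normalized. The submitters' processing notes name cutadapt, Bowtie 1.1.2, RSEM 1.3.0, DESeq2 and the builds GRCm38.p5 and mm10, with no role or order. The deposited counts are whole numbers. If RSEM made them, estimated counts were rounded before deposit. With edgeR 4.0.16 (R 4.3.3), filterByExpr (minimum count 10) left 13508 genes, libraries were scaled by TMM, and each line received its own mean in 1 quasi-likelihood fit of the 9 libraries. The two-sided quasi-likelihood test was adjusted by Benjamini-Hochberg over all tested genes (threshold 0.05), and standard errors are the log2 fold change over the square root of F. CPM values use TMM library sizes. Per-kilobase values use exonic length in GENCODE release vM21. The pipeline was tested on simulated data. DESeq2 1.42.0, other scalings and filters, a replicate block, fits of only 2 lines and fits without each library were tried.

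The members and lists were chosen with earlier results of these data known. Named genes are all members, all genes of short lists, and from longer lists the 2 largest rises and falls in each HD line past the threshold with at least 10 CPM and no overlap. Gdf15 and Ddit4l, named in a caption, and Trp63 and Trp73 were named after their values were seen. A floor of 3 counts corresponds to 0.0710 to 0.101 CPM and covers counting error only. RefSeq windows were matched by symbol. 1 gene that the rule names is not reported here. Cop1 and Dglucy are also listed under older symbols, and those rows were not summed.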

Additional observations from a re-analysis of the deposited data

Results flagged for a closer look

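For 8 of the 10 genes the effect in HD-homo cells differed from that in HD-het cells when both were set against the same control libraries, as tested by the contrast between the HD lines with edgeR's quasi-likelihood test and Benjamini-Hochberg adjustment. The difference in log2 fold change (HD-homo minus HD-het) was 0.49 for Trp53, 0.37 for Mdm2, -0.62 for Cdkn1a, -0.83 for Cdkn1b, -0.74 for Cdkn2a, -0.95 for Cdkn2b, -1.05 for Rb1 and -1.30 for Perp. The calls of Mdm2 and Cdkn1a were lost without single libraries, with values down to 0.26 for Mdm2 without HD-homo replicate 2 and -0.41 for Cdkn1a without HD-homo replicate 1. Among all tested genes 71.6% differed between these lines, so a difference of this kind is common here.

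In the wider lists, genes with effects called in opposite directions in the HD lines were marked in the same way. The difference was -0.87 for Cop1, 1.22 for Npm1, 0.93 for E2f8, -2.22 for E2f6, 2.17 for Cdkn1c, -1.32 for Cdkn2d, -2.74 for Ccnd2 and -0.73 for Focad. The effect of Npm1 in HD-homo against control cells, 0.26, was small and lost its call when single libraries were left out. Without control replicate 1, 2 or 3 or HD-homo replicate 1 or 3 the effect of Npm1 was 0.23, 0.26, 0.28, 0.23 and 0.23. Cdkn2d in HD-homo against control cells gave -0.33 (adjusted p = 0.0591) without control replicate 3.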

How the results depend on the processing

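No log2 fold change of the 10 genes or of the other named genes changed its sign together with its call under any setting, and the counts of called genes, of called members and of called genes over all wider lists stayed within 1.5 times. Outside the fits that left out a library, Rb1 in HD-homo against control cells missed the threshold with library totals only (-0.41, adjusted p = 0.0540). Cdkn2b (0.27) and Perp (-0.13, adjusted p = 0.0240) in HD-het cells passed it with only the 2 lines compared. Between HD-homo and HD-het cells, Mdm2 missed it with upper-quartile factors (0.31, adjusted p = 0.0849) and with only the 2 lines (0.37, adjusted p = 0.0553), and Cdkn1a with library totals only (-0.60, adjusted p = 0.0561), with DESeq2's Wald test (-0.62, adjusted p = 0.0762) and with the replicate block (-0.66, adjusted p = 0.0503). Scaling moved the median of all genes by at most 0.0718.

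Without 1 library at a time, the values ranged from -0.20 to -0.13 for Trp53, -0.22 to -0.040 for Cdkn1b, -0.60 to -0.30 for Rb1 and -0.57 to -0.19 for Ccng1 in HD-homo against control cells. In HD-het against control cells they ranged from 0.28 to 0.35 for Cdkn2a, 0.26 to 0.29 for Cdkn2b, -0.70 to -0.36 for Ccng1 and -0.15 to -0.12 for Perp. Between HD-homo and HD-het cells they ranged from 0.26 to 0.55 for Mdm2 and from -0.84 to -0.41 for Cdkn1a. Differences that did not pass the test moved as well, for Cdkn1a from 0.17 to 0.55 in HD-het against control cells and from -0.47 to -0.069 in HD-homo, and for Mdm2 from -0.36 to -0.064 in HD-homo. The causes were not tested.

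The replicate numbers were not taken as pairing the samples, since the correlation of same-numbered libraries' deviations lay between -0.0053 and 0.145 and was not over 0.1 in every pair, although 8 of 9 libraries correlated best with their own number. The replicate block gave 8372 called genes in HD-homo and 9160 in HD-het cells against control, beside 7910 and 8797 without it, and among the 10 genes it changed only the call of Cdkn1a given above, while that of Mtap in HD-homo against control cells was lost (-0.21, adjusted p = 0.0636). Depth did not limit these genes. With 3 libraries of 1 line per genotype, differences between lines of the same genotype were not measured.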
